A study of Homo sapiens with 2 samples.

Results

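Insulin-like growth factor (IGF) signalling was described here through 10 genes, taken by symbol from both deposited expression tables: the ligand gene IGF2, the receptor genes IGF1R, INSR and IGF2R, the adaptor genes IRS1 and IRS2, and the binding protein genes IGFBP2, IGFBP3, IGFBP4 and IGFBP6. They are 10 of the 51640 gene symbols in the tables, and all 10 had a usable estimate in both. The samples were 2 libraries of HCT116, a human epithelial line grown from a colorectal tumour, which the submitters call biological replicates and name PF and PJ. The meaning of those names is not stated, nor whether the cultures were separate, and no treatment is labelled; both were grown in serum-containing medium to 80% confluence and form 1 group. All values are FPKM, fragments per kilobase of transcript normalised to library depth, with the 95% bounds that the authors deposited for each estimate.

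IGF2 and its relative IGF1 are secreted growth factors that act through IGF1R, a receptor tyrosine kinase, and through INSR, the insulin receptor. The activated receptors phosphorylate the docking proteins IRS1 and IRS2, which pass the signal to PI3 kinase, AKT and mTOR. IGF2R binds IGF2 without a kinase of its own and carries it to lysosomes, and the IGF binding proteins hold the ligands outside the cell and set how much reaches the receptors. IGF2 is an imprinted gene, and its overexpression is well known in part of colorectal cancers.

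HCT116 cells carried transcripts of most of the 10 genes, but at very unequal levels. These genes were chosen with earlier results of these data known, so their share does not speak for the whole family. Of 6 other ligand and receptor genes and 5 other binding and carrier protein genes, 0 reached 1 FPKM in both libraries. Of the 10 genes, 8 reached 1 FPKM or more in both libraries and IGFBP3 and IGFBP4 reached it in neither; among all symbols with a value the share at 1 FPKM or more in both was 27.9%, and among protein-coding symbols it was 57.3%. IGFBP2 was the highest of the 10 in both libraries, at 133 FPKM in PF against 156 in PJ, which was 62.4 times the level of IGF1R in PF and 72.2 times in PJ. The ligand and its signalling receptors stood near the low end, between 1.52 and 3.67 FPKM. Of the 8 expressed genes the adaptors differed most between the libraries: IRS1 was lower and IRS2 higher in PJ. With 1 FPKM added to each value, both were at least 2-fold apart, as were 15.6% of all symbols whose mean reached 1 FPKM. Every one of the 20 estimates lay between its deposited bounds, which 14.7% of rows at 1 FPKM or more in PF and 13.2% in PJ did not.

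**Figure D1:**
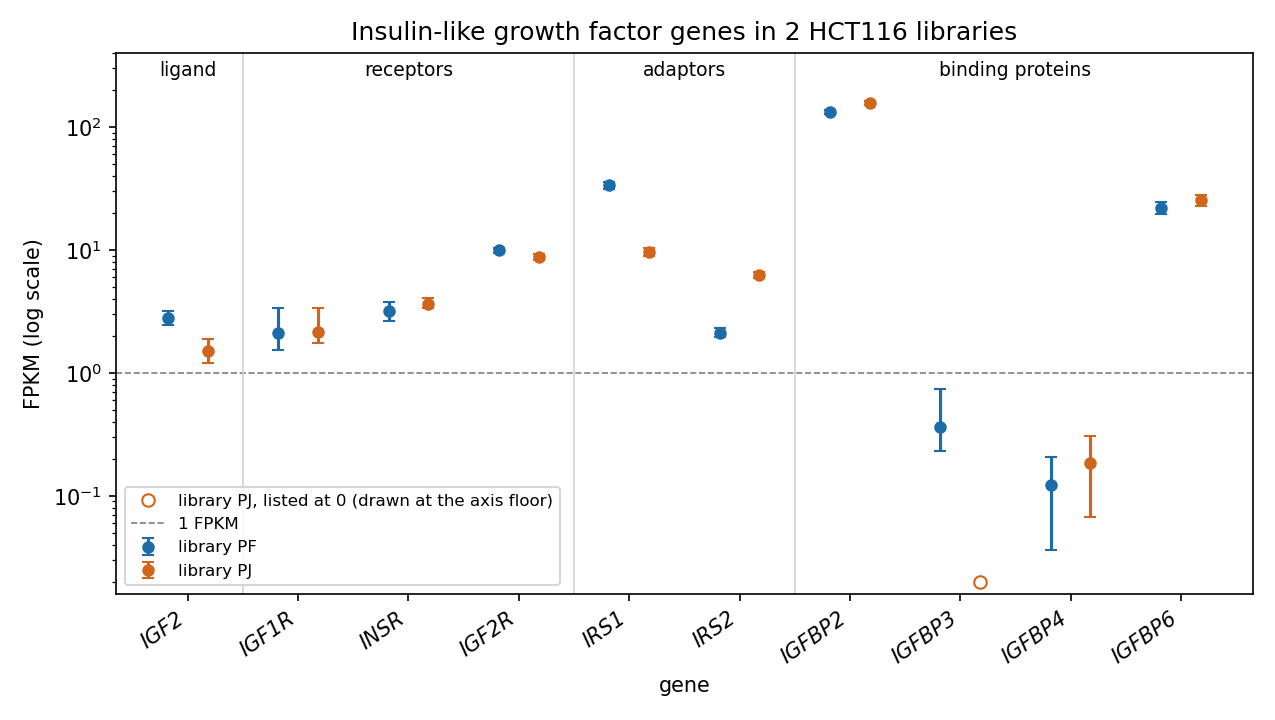
FPKM on a log axis for the 10 genes, ordered by role, with a point for each library and bars for the deposited 95% bounds; the dashed line marks 1 FPKM. IGFBP2 sits highest at 133 and 156 FPKM, IGFBP3 in PJ is listed at 0 and drawn at the axis floor, and the points of the libraries are farthest apart for IRS1 and IRS2 among the genes above the line.

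The identity of the cells was checked first. Of 9 colon epithelium markers, 6 passed 1 FPKM in each library, among them the keratin genes KRT8 (760 FPKM in PF, 280 in PJ), KRT19 (306 and 325) and KRT18 (216 and 147) and the adhesion gene EPCAM (213 and 143), whereas the homeobox gene CDX1 was at 0.000620 and 0.000410. Markers of other cell types were nearly all under the threshold: 1 of 9 for fibroblasts (COL1A1), 0 of 5 for endothelium and 1 of 7 for immune cells (CD68), with summed levels of 7.82 FPKM in PF against 4.23 in PJ, 0.302 and 0.217, and 4.08 and 14.4. The endothelial cadherin gene CDH5 stood at 0.00358 and 0.0117 FPKM, the leukocyte gene PTPRC at 0.0734 and 0.000256, and the fibroblast gene LUM at 0.000511 in PF, while PJ lists it at 0. The libraries differed in many genes. PJ values were generally higher, by a median factor of 1.19 (0.25 on the log2 scale) over expressed symbols, and ratios are given below as deposited and after this shift was divided out. In bulk RNA, fewer cells expressing a gene and less RNA per cell cannot be told apart. With 1 library on each side of a ratio there is no test of it, and the bounds cover the estimate within a library, not the variation between cultures.

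The ligand gene IGF2 (ENSG00000167244.11; hg19 chromosome 11, 2150342 to 2182439, minus strand) was expressed at a low level. It stood at 2.78 FPKM in PF (bounds 2.46 to 3.18) against 1.52 in PJ (1.20 to 1.89). The bounds did not overlap, and PF was 1.83 times as high as PJ, or 2.17 times after the shift was divided out. Among the expressed symbols IGF2 lay at the 15.6 percentile in PF and the 4.11 percentile in PJ, so it was among the weakest transcripts counted as present. Overlapping annotated genes were lower: the readthrough gene INS-IGF2 was at 0.000139 FPKM in PF against 4.14e-05 in PJ, the antisense gene IGF2-AS at 0.0161 and 0.0114, and the insulin gene INS was listed at 0 in both. AC132217.4, a noncoding transcript annotated over the 3' end of IGF2, was at 2.06 FPKM in PF against 0.660 in PJ. Reads from that end could have been assigned to either gene, which makes the level of IGF2 uncertain. H19, the imprinted noncoding RNA gene next to IGF2, was at 2.68 FPKM in PF (2.06 to 3.25) against 3.12 in PJ (2.43 to 3.83), with overlapping bounds. The ratio of H19 to IGF2 was 0.965 in PF and 2.05 in PJ.

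No other ligand of the family reached the threshold. IGF1 was at 0.00325 FPKM in PF against 0.00390 in PJ, and the relaxin family gene INSL3 at 0.408 and 0.455. The insulin receptor-related gene INSRR was at 0.00965 FPKM in PJ and lower still in PF. Of the 6 genes in that list, 0 passed 1 FPKM in each library.

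The receptor genes differed little between the libraries. IGF1R (ENSG00000140443.9; chromosome 15, 99192200 to 99507759, plus strand) was at 2.12 FPKM in PF (1.52 to 3.39) against 2.16 in PJ (1.75 to 3.37). INSR (ENSG00000171105.9; chromosome 19, 7112266 to 7294045, minus strand) was at 3.21 FPKM in PF (2.64 to 3.74) against 3.67 in PJ (3.39 to 4.06). For both genes the bounds of the libraries overlapped, and after the shift was divided out PJ was 0.858 times PF for IGF1R and 0.963 times for INSR, so the small excess in PJ turned around. INSR exceeded IGF1R 1.51 times in PF, where their bounds overlapped, and 1.69 times in PJ, where they did not. IGF1R thus made up 39.8% of the summed FPKM of these receptor genes in PF and 37.1% in PJ. A total by gene does not separate the splice forms of INSR, which differ in their affinity for IGF2.

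IGF2R (ENSG00000197081.7; chromosome 6, 160390131 to 160534539, plus strand), the clearance receptor, was the highest receptor gene. It was at 9.90 FPKM in PF (9.41 to 10.4) against 8.80 in PJ (8.33 to 9.29), near the middle of the expressed genes at the 45.9 and 37.9 percentile. PF was 1.12 times as high as PJ and the bounds did not overlap; after the shift was divided out the factor was 1.34. Its level was 3.57 times that of its ligand gene IGF2 in PF and 5.79 times in PJ, and 4.66 and 4.07 times that of IGF1R. AIRN, an antisense RNA gene within IGF2R, was listed at 0 in both libraries.

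Among the 10 genes the adaptors differed most between the libraries, of those at 1 FPKM or more in both. IRS1 (ENSG00000169047.4; chromosome 2, 227599757 to 227664475, minus strand) was at 33.5 FPKM in PF (31.6 to 35.5) against 9.60 in PJ (8.85 to 10.3). PF was 3.49 times as high. IRS2 (ENSG00000185950.7; chromosome 13, 110406184 to 110438915, minus strand) had the opposite order, at 2.13 FPKM in PF (1.95 to 2.31) against 6.23 in PJ (5.86 to 6.60), so that PJ was 2.93 times as high. Neither pair of bounds overlapped. After the shift was divided out PF was 4.14 times as high for IRS1 and PJ 2.47 times as high for IRS2. Because IRS1 was the more abundant gene, the sum of both adaptors was lower in PJ, at 35.6 FPKM in PF against 15.8 in PJ.

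The balance between the adaptors differed more than either level. IRS1 exceeded IRS2 by 15.8 times in PF and by 1.54 times in PJ. IRS1 made up 94.0% of their summed FPKM in PF and 60.6% in PJ. Set against IGF1R, which was nearly level between the libraries, IRS1 stood 15.8 times higher in PF and 4.43 times in PJ, and IRS2 1.00 times and 2.88 times. These ratios are taken within a library and do not depend on its scaling.

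**Figure D2:**
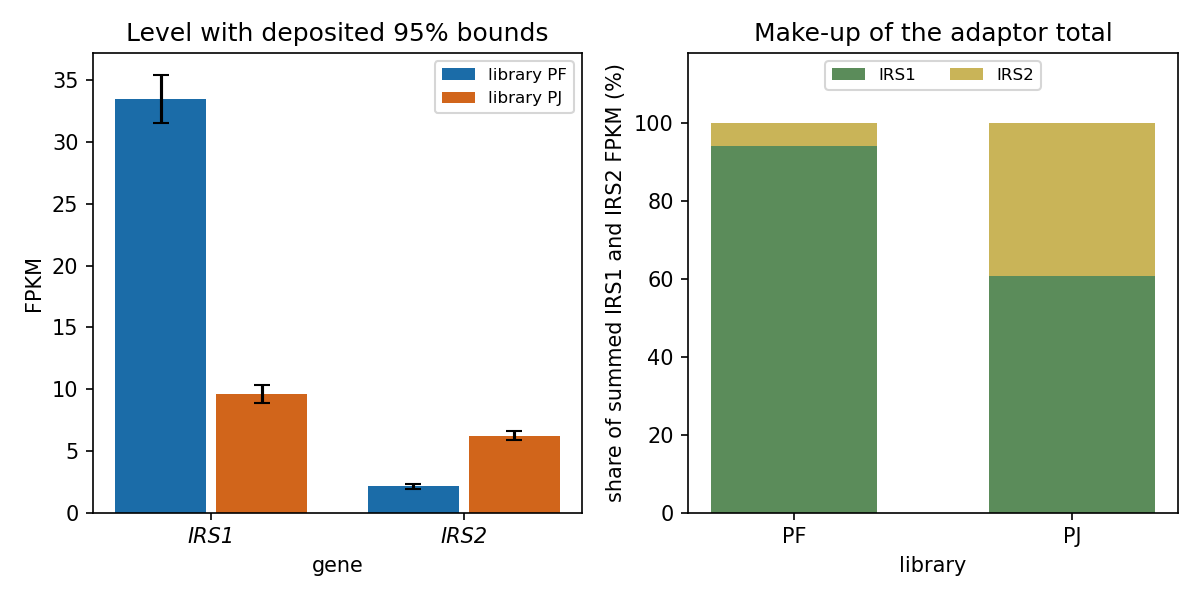
Left, FPKM of IRS1 and IRS2 in each library with the deposited 95% bounds; right, the share of each gene in their summed FPKM. IRS1 is 33.5 FPKM in PF against 9.60 in PJ, IRS2 is 2.13 and 6.23, and the share of IRS2 is 5.97% in PF and 39.4% in PJ.

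Ratios were also taken after adding 1 FPKM to each value, so that those of low genes come out smaller than they are. On this log2(FPKM + 1) scale the difference of PJ from PF was -1.70 for IRS1 and 1.21 for IRS2. They were the only members at least 2-fold apart on that scale among the 8 whose mean reached 1 FPKM: 1 was higher in PJ, where the share over all such symbols was 10.4%, and 1 was lower, where it was 5.22%. After the shift was divided out IRS1 stood at -1.92 and IRS2 at 0.999, just under the 2-fold line that its plain FPKM ratio passed, which left 1 gene lower (7.14% of all such symbols) and 0 higher (6.29%). The median over the 8 members was 0.08, against 0.22 over all 15736 symbols of that level, and -0.10 against 0.01 after the shift was divided out. Deposited bounds were apart for 5 of the 8 genes, a condition that 62.7% of all such symbols met, and for 4 after the shift was divided out, when 58.1% met it. These shares include symbols whose estimate lies outside its own bounds, so they are a rough background.

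**Figure D3:**
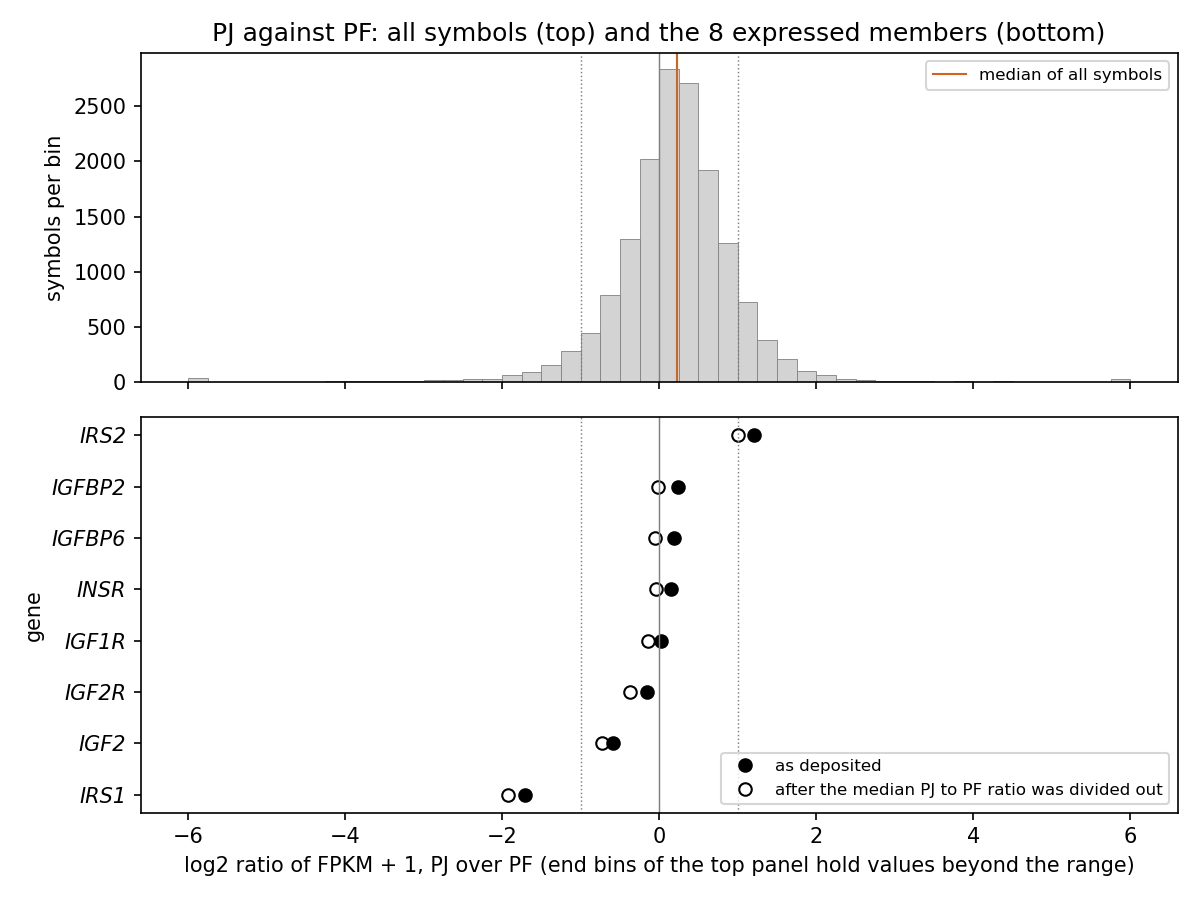
Top, the number of symbols by log2 ratio of FPKM + 1, PJ over PF, for 15736 symbols whose mean reached 1 FPKM; bottom, the 8 members as deposited (filled) and after the median ratio was divided out (open), with dotted lines at a 2-fold difference. IRS1 lies at -1.70 and IRS2 at 1.21, and the other 6 genes lie between the dotted lines in both versions.

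Other genes also set PJ apart from PF and moved beside the adaptors. The epithelial cadherin gene CDH1 was at 21.9 FPKM in PF against 1.80 in PJ, KRT8 was lower in PJ as given above, and SESN1 was at 22.4 and 3.04 FPKM. The SESN1 estimate in PF lies above its own deposited upper bound of 21.7. A single ratio per gene cannot show whether genes vary together, and the part of these genes in the adaptor difference was not tested. A short transcript annotated inside IRS2, AL162497.1, was level between the libraries at 1.38 FPKM in each.

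The start regions of the adaptor genes are shown because these are the members that differed most. The bases printed are the 250 before the RefSeq start of each gene (GRCh38.p14), read on the gene's own strand, at chr2:226799821-226800070 for IRS1 and chr13:109786584-109786833 for IRS2, both on the minus strand. Capitals mark each match on either strand to GGGCGG, the GC box letters that factors of the Sp family recognise; matches that overlap or touch run together.
IRS1: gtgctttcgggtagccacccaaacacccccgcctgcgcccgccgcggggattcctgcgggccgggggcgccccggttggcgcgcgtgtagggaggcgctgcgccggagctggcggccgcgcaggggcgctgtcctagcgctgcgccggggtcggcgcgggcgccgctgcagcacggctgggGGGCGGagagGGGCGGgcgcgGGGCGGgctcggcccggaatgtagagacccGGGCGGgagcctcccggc
IRS2: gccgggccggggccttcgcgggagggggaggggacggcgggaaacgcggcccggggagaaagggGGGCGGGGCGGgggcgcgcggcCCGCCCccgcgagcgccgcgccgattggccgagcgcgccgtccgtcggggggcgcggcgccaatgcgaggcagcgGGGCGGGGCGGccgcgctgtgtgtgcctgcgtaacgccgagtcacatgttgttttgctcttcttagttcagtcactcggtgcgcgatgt

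Both regions are rich in G and C and hold several GC boxes. In the full 300-base window, which reaches 50 bases past the start, IRS1 had 4 matches to GGGCGG and IRS2 had 5, and they had 47 and 50 CpG dinucleotides against a median of 14 over 35116 promoters. The GC box GGGCGG, the forkhead core GTAAACA, the AP-1 element TGANTCA and the E-box CACGTG were searched on both strands. Matches to different motifs were counted separately even where they overlap, which none did in the members' windows. IRS1 had an E-box at position 36, counted from 1 at the start base, which 7.26% of all promoters also hold in a window of this length. IRS2 matched none of the other motifs in this window. GTAAACA was found in 3.42% and TGANTCA in 7.71% of all promoters.

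The binding protein genes divided into 2 that were abundant and 2 that were close to absent. IGFBP2 (ENSG00000115457.5; chromosome 2, 217497551 to 217529159, plus strand) encodes a secreted protein with a preference for IGF2. It was at 133 FPKM in PF (129 to 138) against 156 in PJ (152 to 163), at the 93.9 and 94.1 percentile of expressed symbols. PJ was 1.18 times as high and the bounds were apart, but after the shift was divided out the factor was 0.992 and they overlapped. IGFBP6 (ENSG00000167779.3; chromosome 12, 53491220 to 53496129, plus strand), whose product binds IGF2 far better than IGF1, was at 22.1 FPKM in PF (19.8 to 24.5) against 25.4 in PJ (22.9 to 27.9), with overlapping bounds and a PJ to PF factor of 0.966 after the shift was divided out.

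IGFBP2 exceeded IGFBP6 5.99 times in PF and 6.15 times in PJ, so their proportion was nearly the same in both libraries. IGFBP2 made up 85.4% of the summed FPKM of the 4 binding protein genes in PF and 85.9% in PJ. IGFBP6 made up 14.3% and 14.0%. The IGFBP2 transcript was 47.7 times as abundant as that of the ligand IGF2 in PF and 103 times in PJ.

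IGFBP3 (ENSG00000146674.9; chromosome 7, 45951951 to 45961473, minus strand), the main carrier of IGFs in blood and a gene that p53 can induce, was at 0.364 FPKM in PF (0.234 to 0.733). In PJ it was listed at 0 with both bounds at 0, so no ratio is given. IGFBP4 (ENSG00000141753.5; chromosome 17, 38599702 to 38613983, plus strand), whose product is cut by the protease PAPPA, was at 0.122 FPKM in PF (0.0362 to 0.209) against 0.186 in PJ (0.0672 to 0.304), with overlapping bounds. The family's other members were no higher: IGFBP5 was at 0.0727 and 0.0264 FPKM, IGFBP7, a related protein of low IGF affinity, at 0.104 and 0.0880, and IGFBP1 was listed at 0 in both. IGFALS, the gene of the subunit that completes the blood carrier complex, was at 0.00923 and 0.0869 FPKM. Of the 5 genes in this list, 0 reached the threshold.

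The summed FPKM of the 4 binding protein genes was 155 in PF and 182 in PJ, and that of IGF1R plus INSR was 5.33 and 5.83. Binding protein transcripts therefore exceeded those of the signalling receptors 29.1 times in PF and 31.2 times in PJ. With the deposited lower bounds throughout, these ratios were 35.8 and 34.0, and with the upper bounds 23.0 and 25.7. Transcript ratios are not protein ratios.

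The start regions of IGFBP2 and IGFBP3 are shown as those of the highest gene and of a near-silent gene in the same family. They are again the 250 bases before the RefSeq start (GRCh38.p14), at chr2:216632578-216632827 on the plus strand and chr7:45921273-45921522 on the minus strand, with GGGCGG matches on either strand in capitals.
IGFBP2: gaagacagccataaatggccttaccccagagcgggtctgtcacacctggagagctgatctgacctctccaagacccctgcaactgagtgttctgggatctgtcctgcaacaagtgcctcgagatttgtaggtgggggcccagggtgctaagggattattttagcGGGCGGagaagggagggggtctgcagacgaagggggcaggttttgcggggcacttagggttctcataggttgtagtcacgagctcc
IGFBP3: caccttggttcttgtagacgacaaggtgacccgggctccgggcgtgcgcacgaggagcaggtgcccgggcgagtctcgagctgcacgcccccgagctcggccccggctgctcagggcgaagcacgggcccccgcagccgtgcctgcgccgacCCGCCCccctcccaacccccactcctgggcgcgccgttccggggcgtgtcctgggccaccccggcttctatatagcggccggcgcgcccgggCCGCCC

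Of this pair the abundant gene had the fewer CpG dinucleotides, with 8 in the 300-base window of IGFBP2 against 36 for IGFBP3. IGFBP6, the other abundant binding protein gene, had 12, and IGFBP4, the other low one, had 30. IGFBP6 held the only match to GTAAACA among the members, at position -186, counted back from the base before the start. A RefSeq promoter was found for 9 of the 10 genes, all but IGF2. GGGCGG was present in 9 of 9, where 45.0% of all promoters hold it, and CACGTG in 2 of 9, IRS1 and IGF2R. CpG counts of the other windows were 55 for IGF1R, 41 for IGF2R and 36 for INSR, with those of IRS1 and IRS2 given above. IRS1 and IGF2R, with 47 and 41, were well above IGFBP3 and IGFBP4 in level. The order among the binding protein genes thus did not extend to the members as a whole. The table gives 1 start per gene, so other starts of these genes were not examined. The windows, that of IGFBP2 included, need not hold the start most used in these cells.

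Ordered by level, the members fell into the same broad tiers in both libraries, with the adaptors changing place. In PF the order was IGFBP2, IRS1, IGFBP6, IGF2R, INSR, IGF2, IRS2, IGF1R, IGFBP3 and IGFBP4. Neighbours whose bounds overlapped there were INSR with IGF2 and IRS2 with IGF1R. In PJ the order was IGFBP2, IGFBP6, IRS1, IGF2R, IRS2, INSR, IGF1R, IGF2, IGFBP4 and IGFBP3, with overlapping bounds for IRS1 with IGF2R and for IGF1R with IGF2. IRS1 lay at the 76.2 percentile of expressed symbols in PF and at the 40.3 in PJ, and IRS2 at the 10.7 and the 28.9.

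The genes around the axis were examined as 11 lists with 121 other symbols, of which 120 had a value in both libraries. SHC1, an adaptor gene, had a failed estimate in PJ and was left out. Of the 120, 76 passed 1 FPKM in each library, or 63.3%, where 57.3% of protein-coding symbols and 27.9% of all symbols with a value did. On the FPKM + 1 scale, among the 80 whose mean reached 1 FPKM, 5 were 2-fold or more above PF and 6 were 2-fold or more below it, and after the shift was divided out 4 and 8. Over all symbols of that level 10.4% were 2-fold or more above PF and 5.22% below it, and 6.29% and 7.14% after the shift was divided out. The counts of single lists below have these same shares as their background. The median log2 ratio of the 80 was 0.09, or -0.14 after the shift was divided out. List medians below are as deposited; with the shift divided out they were 0.28 for proteases and inhibitors, -0.19 for adaptors, -0.40 for PI3 kinase and AKT, -0.05 for TSC and mTOR, -0.21 for FOXO and GSK3 and -0.71 for insulin-responsive transcripts, so the adaptor, mTOR and FOXO medians change sign with the scaling.

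Other docking and adaptor genes were mostly present, 15 of 21, and those 2-fold apart on the FPKM + 1 scale were again divided in direction. GRB10, whose product binds the activated insulin and IGF1 receptors and dampens them, was at 4.56 FPKM in PF (3.73 to 5.55) against 23.6 in PJ (21.8 to 25.3). CRK, an SH2 and SH3 domain adaptor gene, was at 12.3 and 35.4 FPKM. SH2B3, the gene of an inhibitory adaptor, was lower in PJ, at 11.5 and 4.18. The highest members were GRB2, which links receptors to RAS (138 and 114 FPKM), PTPN11, the gene of the phosphatase SHP2 (52.3 and 45.3), and CRKL (44.2 and 33.3), while IRS4, a further docking protein gene, was listed at 0 in both. The median log2 ratio was 0.04 over 16 genes.

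Proteases and inhibitors that act on binding proteins, ligands or receptors passed the threshold in 7 of 14 cases. PLAU, the urokinase gene, was at 4.76 FPKM in PF against 36.2 in PJ, and STC2, which encodes an inhibitor of PAPPA, at 5.33 and 15.9. CTSD (cathepsin D) led the list at 63.1 and 50.3 FPKM, with the proprotein convertase gene FURIN at 15.0 and 12.0. PAPPA2, a protease gene of the same kind as PAPPA, was lowest at 0.00133 and 0.000849. The median log2 ratio was 0.44 over 7 genes.

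Downstream of the adaptors, 13 of 18 genes for PI3 kinase, AKT and their phosphatases passed, with 0 at least 2-fold apart on the FPKM + 1 scale and a median log2 ratio of -0.19 over 14 genes. On plain FPKM 3 of these 14, all low, were over 2-fold apart and were named after their values were seen. They were the catalytic subunit gene PIK3CD (2.65 and 1.23 FPKM), the regulatory subunit gene PIK3R3 (0.366 and 1.69) and INPP4B, a lipid phosphatase gene (4.65 and 2.10). Genes of a lower mean were not counted, among them PIK3IP1 at 1.28 FPKM in PF against 0.291 in PJ. AKT1 was at 88.0 FPKM in PF against 64.1 in PJ, AKT2 at 48.1 and 55.1, and PIK3R2, a regulatory subunit gene, at 34.4 and 29.4. PIK3CG, a catalytic subunit gene of blood cells, was lowest at 0.0191 and 0.00881. After the shift was divided out INPP4B passed the 2-fold line on the FPKM + 1 scale, at a log2 ratio of -1.03.

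In the list of TSC and mTOR genes 17 of 19 passed, with RPS6, the ribosomal target of the pathway, at 1316 FPKM in PF against 1583 in PJ, EIF4EBP1, a translation repressor gene, at 80.0 and 76.9, and MAPKAP1, an mTOR complex subunit gene, at 59.7 and 61.9. The sestrin genes, whose products restrain mTOR, stood apart: SESN1, a known p53 target, as given above, SESN2, another p53 target, at 18.3 FPKM in PF against 3.65 in PJ, and SESN3, the lowest of the list, at 1.34 and 0.0710. On the FPKM + 1 scale SESN1 and SESN2 were the 2 genes at least 2-fold lower in PJ among 18 whose mean reached 1 FPKM, and the median log2 ratio of these 18 was 0.18. RICTOR, an mTOR complex subunit gene named after its values were seen, was at 7.91 FPKM in PF against 3.61 in PJ, 0.457 times as high on plain FPKM; its log2 ratio of FPKM + 1 was -0.95, and -1.14 after the shift was divided out, when 3 genes of the list were 2-fold lower. All 6 FOXO and GSK3 genes passed and 0 were 2-fold apart on the FPKM + 1 scale, with a median log2 ratio of 0.01. GSK3A was at 44.1 and 57.3 FPKM, GSK3B at 22.1 and 23.6, FOXO3 at 7.12 and 4.29, and FOXO6 at 1.48 and 1.80.

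**Figure D4:**
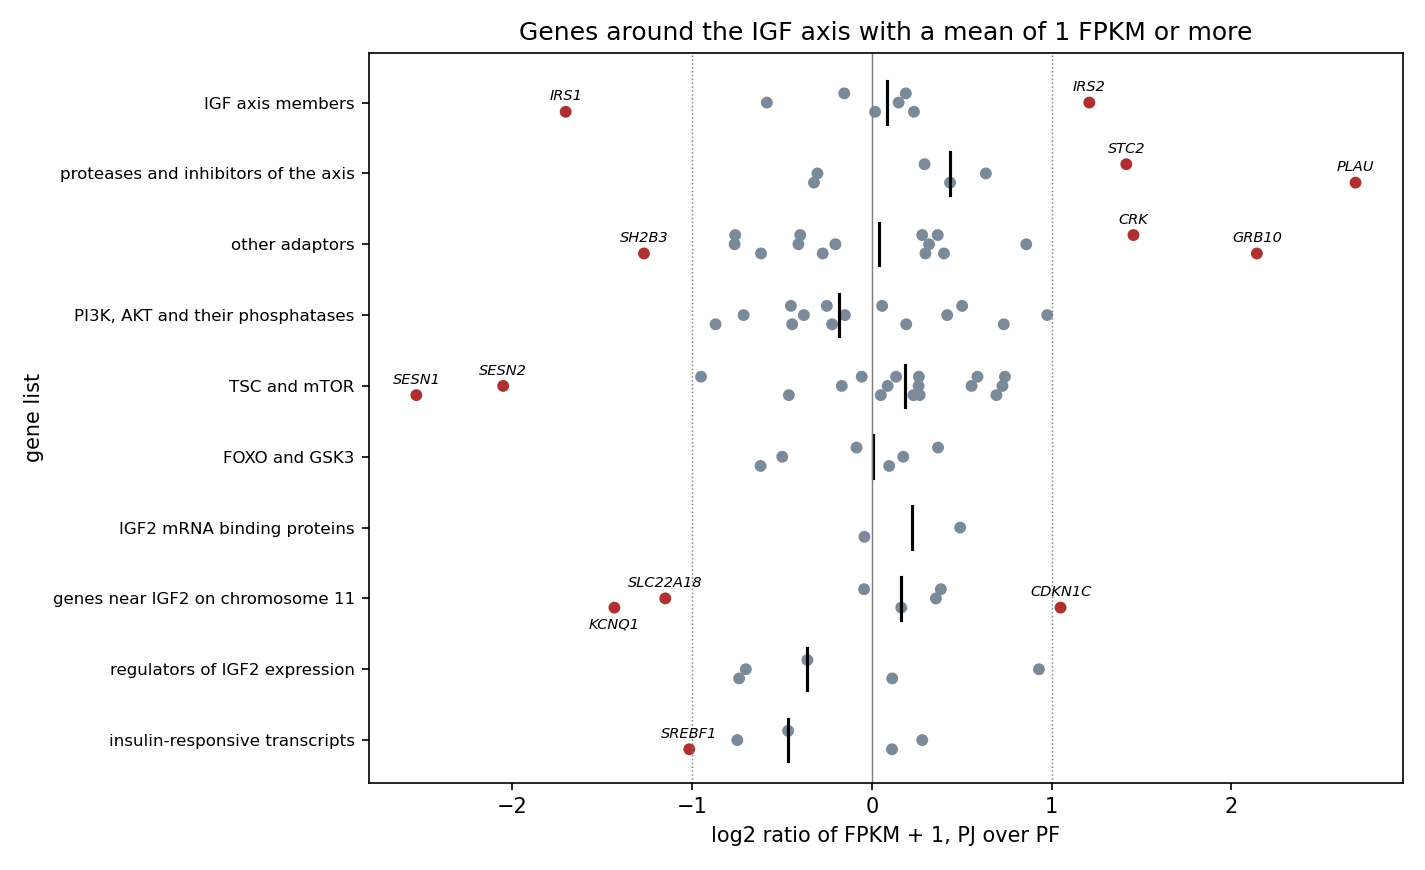
Log2 ratio of FPKM + 1, PJ over PF, for genes whose mean reached 1 FPKM in the members' list and in 9 lists around the axis; each point is a gene, black bars are list medians, and red labelled points are at least 2-fold apart (dotted lines). IRS1 and IRS2 lie on opposite sides, as do GRB10 and SH2B3 among the other adaptors, and the PI3 kinase and AKT list has no labelled point.

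Transcripts that insulin is known to raise or lower were divided. Of 9, 5 passed the threshold. SREBF1, the gene of the lipogenic factor SREBP1, was at 136 FPKM in PF against 66.8 in PJ, FASN (fatty acid synthase) at 321 and 232, and the glucose transporter gene SLC2A1 at 61.4 and 66.5, while PCK1, a gluconeogenic gene, was listed at 0 in both. The median log2 ratio was -0.47 over 5 genes, of which SREBF1 was at least 2-fold lower in PJ and 0 were at least 2-fold higher.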

How the data were processed

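TRIzol RNA went into paired-end TruSeq V2 libraries, per the labels' protocols. The submitters' processing notes name TopHat2 2.0.8b, Cufflinks and hg19; which annotation release was used is not given in the sources used here. Per the file headers, the authors deposited FPKM for each gene with its 95% bounds and status. FPKM is relative to transcript length and library total, so abundant RNAs can lower all other values. The number of fragments is unknown, and bounds cover estimation within a library only. Estimates lay outside their own bounds in 2331 rows of PF and 2130 of PJ, among them AKT1, CTSD, FASN, GRB2, GSK3A and HMGA1 in both libraries, GSK3B in PJ, and IGF2BP2, KRT8 and SESN1 in PF; they were kept, and the cause is not known. The labels do not state strand-specific counting, so overlapping and antisense genes may share reads.

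Rows with status FAIL (23 in PF, 20 in PJ) were treated as missing, and FPKM of rows sharing a symbol were summed (375 symbols). Expressed means 1 FPKM or more in both libraries. Ratios written as times are of plain FPKM; log2 ratios, their medians and all counts of genes 2-fold apart divide PJ by PF after adding a pseudocount of 1 FPKM, for symbols whose mean reached 1 FPKM; no p-value was computed. Coordinates are those of the tables (hg19), with starts counted from 1. Gene types and strands came from GENCODE release 29 by identifier (88.7% matched), promoters from RefSeq. Members and lists were chosen with earlier results of these data known. All members were named; of each other list the rule took the 3 highest means, the lowest, and genes at least 2-fold apart whose mean reached 5 FPKM. Genes overlapping or next to members, and EPCAM, CDH1, KRT20, VIL1, PTPRC, INPP4B, PIK3CD, PIK3IP1, PIK3R3 and RICTOR, were named after their values were seen. The fold count was tested on simulated data. Alternatives were other thresholds, pseudocounts, scalings, filters and bounds. Python 3.11.15, numpy 2.4.6, pandas 2.3.3 and matplotlib 3.10.9 were used. The normal colon samples of the design were not analysed here, and 1 gene left out of the lists is not reported here and enters no list count or median.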

Additional observations from a re-analysis of the deposited data

How the results depend on the processing

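The count of 8 expressed members was the same at 0.5 FPKM and with the deposited lower bounds. It was 4 at 5 FPKM and 2 at 10 FPKM. In each library alone, which could not lower it, the count was also 8. Keeping failed rows at 0 or taking the highest row of a symbol left it at 8. Neither could change it, as no member had a failed row or several rows. The count of 1 member at least 2-fold lower in PJ, IRS1, was 1 under all 9 alternatives. The count of 1 at least 2-fold higher, IRS2, was 0 after the median ratio of expressed symbols, that of protein-coding symbols or the upper quartile was divided out, and 0 when the mean had to reach 5 FPKM, which that of IRS2 does not; the log2 ratio of IRS2 ranged from 0.94 to 1.55 and that of IRS1 from -1.99 to -1.70. Of 68 recomputed ratios of single genes, 19 moved outside the span allowed by the deposited bounds, all under another pseudocount or scaling. The 68 include ratios under other filters or the highest row of a symbol, which could not move, so the 19 are a larger share of those that could. Only IRS1 and IRS2 had a 2-fold difference to reverse, and neither did. The small differences of IGF1R, INSR, IGFBP2 and IGFBP6 changed sign when the median ratio was divided out. Bounds at least 1.5 times apart were found for 2 members against 5. The share of all symbols that meet this stricter condition was not taken, so the 2 have no background beside them. With IGF1R alone as receptor, the binding protein ratio was 73.1 in PF and 84.0 in PJ. Leaving out a library leaves no ratio between libraries, and with 1 group no paired analysis was possible because there are no groups to pair. Depth is unknown, so how far it limits IGFBP3 and IGFBP4 cannot be said.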

Other observations

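Around IGF2 on chromosome 11, 6 of 12 listed genes of the imprinted region and its surroundings passed 1 FPKM in each library. CD81, a tetraspanin gene, was at 232 FPKM in PF against 225 in PJ, PHLDA2, an imprinted growth-restraining gene, at 110 and 141, and NAP1L4 at 88.7 and 116. SLC22A18, a transporter gene, was at 7.42 FPKM in PF against 2.80 in PJ. The count of those 2-fold apart is completed by genes named after their values were seen: CDKN1C, the gene of the cell cycle inhibitor p57, at 2.68 and 6.61 FPKM, and KCNQ1, a potassium channel gene, at 3.93 and 0.827. After the shift was divided out CDKN1C was no longer 2-fold apart, at a log2 ratio of 0.84. These genes did not all differ in the same direction.

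Of the genes for IGF2 mRNA binding proteins, which attach to IGF2 and many other transcripts, IGF2BP2 and IGF2BP3 were above the IGF2 transcript in both libraries and IGF2BP1 was below it. IGF2BP2 was at 18.2 FPKM in PF against 26.0 in PJ, IGF2BP3 at 16.3 and 15.8, and IGF2BP1 at 0.405 and 1.04. Of 8 genes known to control IGF2 or its imprint, 5 passed, led by HMGA1 (636 and 1213 FPKM), the DNA methyltransferase gene DNMT1 (150 and 89.6) and HMGA2 (79.1 and 48.3), with ZFP57 lowest at 0.121 and 0.0639.

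Neighbouring genes starting within 200 kb of a member were compared as well. The expressed neighbour of IRS1, the rhomboid protease gene RHBDD1, was at 6.06 FPKM in PF against 10.1 in PJ, the opposite order to IRS1. On the FPKM + 1 scale 11 of 41 neighbours with a mean of 1 FPKM or more were at least 2-fold apart, or 26.8%, where 15.6% of all such symbols were; within 500 kb the share was 20.2%. Some of these symbols are annotated in several places and their value is a sum over all of them, so it is not a local level. Without these symbols, an alternative chosen after seeing the data, 9 of 39 neighbours within 200 kb were 2-fold apart, or 23.1%, and 6 of the 9 lie by IGFBP6, so they are few loci. The neighbours of a member share its region and are not independent.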
